A study of Solanum lycopersicum and Solanum tuberosum and Capsicum annuum and Nicotiana tabacum with 10 samples.

Results

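Leaf RNA of 2 Nicotiana species, tobacco and N. benthamiana, was set against leaf RNA of pepper on potato cDNA microarrays. The comparison used the 4 arrays titled for tobacco and N. benthamiana and the 2 arrays titled for pepper, which are 6 of the 10 arrays of the series. It covered the 8208 cDNA clones with a value on all 6 of these arrays, of 15360 clone positions on the slide. A clone was called only where tobacco and N. benthamiana both differed from pepper in the same direction.

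The groups were tobacco (Nicotiana tabacum, 2 arrays), N. benthamiana (2 arrays) and pepper (Capsicum annuum, 2 arrays). All plants were untreated and were grown at 25°C with 16 h of light and 8 h of darkness, and mature leaves were taken after 4 to 6 weeks. Each array carried RNA of a query species labeled with Cy3 and RNA of mature potato leaves labeled with Cy5, with no dye swap. Tomato and petunia were hybridized in the same way on the other 4 arrays. Per the sample labels, the arrays numbered replicate 1 shared 1 potato extract and those numbered replicate 2 shared another, so the potato channel and the dye cancel when species are compared within a replicate. Nothing in the labels tells whether both extracts of a species were made from different plants. The p-values below thus reflect the spread among these 6 arrays alone, and that spread may be technical.

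Potato, tomato and pepper belong to the fruit and tuber crops of the nightshade family, while tobacco and N. benthamiana belong to a separate branch of it. Tobacco leaves are a harvested crop, and N. benthamiana is a laboratory model for plant disease and for transient gene expression. A spotted cDNA clone is a long probe that binds transcripts of related species and also transcripts of close family members of its gene, and its signal falls with the distance between probe and transcript. A difference between species in these data therefore holds both transcript abundance and the fit of the transcript to the potato probe, which cannot be told apart here. No clone, probe or gene sequence was used here.

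Each deposited value is a log2 ratio of the channels whose direction is not stated. The titles name potato first and the software used by the authors forms Cy5 over Cy3, so the ratios likely run as potato over the query species. All values below were turned to log2 query species over potato, and a positive difference thus likely means more signal in the Nicotiana leaf than in the pepper leaf. If the ratios ran the other way, every higher and lower below would be exchanged.

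The number of clones with a value was 9698 and 10130 on the tobacco arrays, 9660 and 9895 on the N. benthamiana arrays, and 9279 and 10100 on the pepper arrays. The median log2 ratio of these arrays lay between 0.02 and 0.08. Replicate arrays of a species differed with a pooled SD of 0.32 in tobacco, 0.42 in N. benthamiana and 0.34 in pepper on the log2 scale. Of the markers fixed for the leaf, PSBR, a subunit of photosystem II, and TK, a Calvin cycle transketolase, matched a clone by name. Ratios to potato leaf carry no level of a single species, so the labeled tissue could not be checked from its markers.

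Of the 8208 clones, 1553 (18.9%) differed from pepper in both Nicotiana species in the same direction. In 646 clones (7.87%) both Nicotiana species were higher and in 907 (11.1%) both were lower. Of these, 185 clones that were higher (2.25%) and 352 that were lower (4.29%) also differed by at least 2-fold in each species. The mean difference of the Nicotiana species from pepper ran from -3.72 to 3.35 on the log2 scale over all clones, with positive values higher in Nicotiana, a median of 0.05, an interquartile range of -0.33 to 0.37 and a median standard error of 0.17. Most clones differed little, since 90.0% lay within 2-fold of pepper.

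The calls of both Nicotiana species use the same 2 pepper arrays. Taken singly, tobacco differed from pepper in 2597 clones (31.6%), of which 1302 were higher (15.9%) and 1295 lower (15.8%). N. benthamiana differed from pepper in 2501 clones (30.5%), of which 1135 were higher (13.8%) and 1366 lower (16.6%). A further 15 clones were called in both species in opposite directions, 1029 were called only in tobacco and 933 only in N. benthamiana; a call in 1 species and not in the other does not show that the species differ. In 1453 of the 1553 joint calls the 4 Nicotiana arrays did not overlap the 2 pepper arrays, which the call itself largely fixes; among all clones tested 3082 (37.5%) had no overlap.

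These counts depended on the replicate term and on single arrays. Without the replicate number in the model, 117 clones were higher and 220 lower, all 337 of them among the 1553. With tobacco replicate 1 left out, 251 were higher and 432 lower, and with tobacco replicate 2 left out 294 and 513. With pepper replicate 1 left out, 384 were higher and 604 lower, and with pepper replicate 2 left out 433 and 602.

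**Figure D1:**
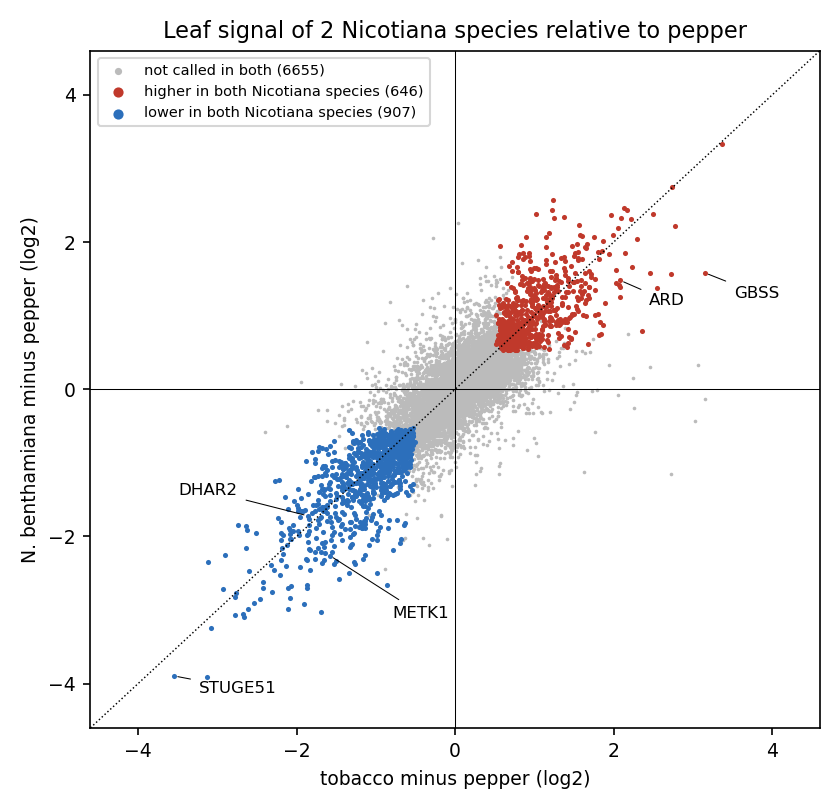
Difference from pepper of each of the 8208 clones in tobacco (x axis) and in N. benthamiana (y axis), both in log2 units and both formed with the same pepper arrays; red points are the 646 clones higher and blue points the 907 clones lower in both Nicotiana species, and the dotted line marks equal differences. GBSS and ARD lie far to the upper right, and STUGE51 lies at the lower left end.

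A gene symbol was given for 905 clone positions, and 815 of these had exactly 1 symbol. Values on all 6 arrays were found for 657 of the single-symbol clones, from 376 of 430 genes, and 27 single-symbol clones had no value on any of the 6 arrays. Among the 657 clones, 51 (7.76%) were higher in both Nicotiana species and 114 (17.4%) were lower, beside 7.87% and 11.1% of all clones tested. Genes with a descriptive symbol made up 76 of the 376 genes; 9 of them had a clone that was higher, 16 had a clone that was lower and 51 had neither. The other 300 genes carry only a locus number, so no function can be given for them here. Of these 300, 28 had a clone that was higher, 55 had a clone that was lower and 217 had neither.

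Genes of starch and sugar metabolism included the largest lower value of all clones, in STUGE51, and the second highest value among single-symbol joint calls, in GBSS. GBSS is the granule-bound starch synthase, which makes amylose. Its log2 ratio over potato was 3.71 and 3.70 on the tobacco arrays, 1.81 and 2.48 on the N. benthamiana arrays and 0.37 and 0.75 on the pepper arrays. All 4 Nicotiana arrays stood above both pepper arrays, and tobacco stood above N. benthamiana. Tomato read 2.147 and 2.483 and petunia 3.075 and 3.22, so a high ratio was not limited to Nicotiana. Pepper had the lowest mean of the query species. Only 1 of the 2 GBSS clones on the array was tested. It did not enter the alternative limited to clones with both duplicate spots, so at least 1 of its values rests on a single spot. The mean of the Nicotiana species exceeded pepper by 2.37 ± 0.18 (SE), a 5.15-fold difference, with the larger adjusted p of the 2 species at 0.000456.

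AMYA1 encodes an alpha-amylase, an enzyme that cuts starch. Its ratio was 0.32 and 0.24 in tobacco, 1.10 and 0.71 in N. benthamiana and -0.67 and -0.83 in pepper. The groups did not overlap, and the difference was 1.34 ± 0.16 (adjusted p 0.00287). STUGE51, a UDP-glucose 4-epimerase that interconverts UDP-glucose and UDP-galactose for cell wall sugars, went the other way. Its first clone read -2.00 and -1.86 in tobacco, -2.23 and -2.33 in N. benthamiana and 1.28 and 1.95 in pepper. Both Nicotiana species lay below potato and pepper lay above it. This difference of -3.72 ± 0.19 (adjusted p 2.68e-05) was the largest in either direction among all 8208 clones.

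The second clone of STUGE51 differed by -3.52 ± 0.27 (adjusted p 0.000155). STUGE45, the other UDP-glucose epimerase gene on the array, differed by only 0.05 ± 0.18 and was not called. PAIN-1, the vacuolar acid invertase that splits sucrose, differed by -0.84 ± 0.21 and missed the threshold (adjusted p 0.0973). Of 6 tested clones in the starch and sucrose list, 2 were thus higher, 2 were lower and 2 were not called, with a median of -0.39. Among all clones tested 7.87% were higher and 11.1% lower. Among single-symbol clones, the kind that the lists hold, 7.76% were higher and 17.4% lower. STP-1 and SUT2 had no clone with a value on all 6 arrays.

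**Figure D2:**
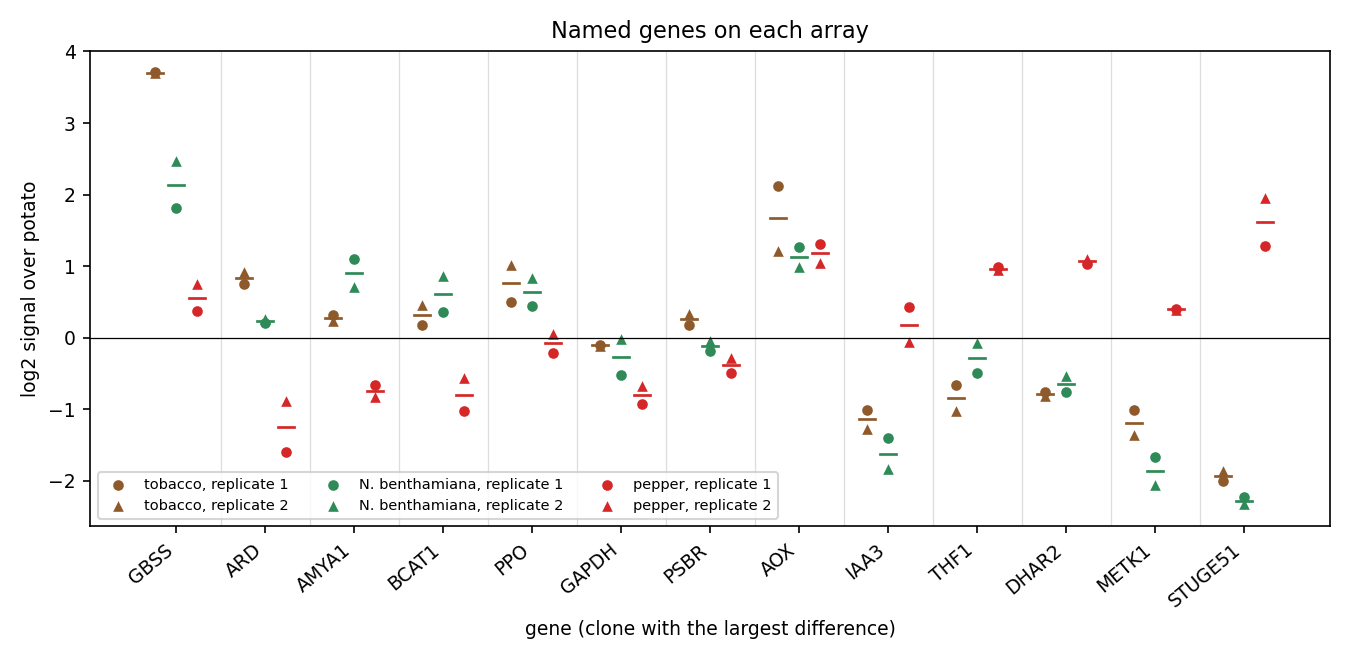
Log2 signal over potato of 13 genes (x axis, the clone with the largest difference of each) on each of the 6 arrays; circles are replicate 1, triangles replicate 2, and bars the mean of a species, with tobacco and N. benthamiana left of pepper. In GBSS, ARD, AMYA1 and BCAT1 both Nicotiana species stand above pepper, and in IAA3, THF1, DHAR2, METK1 and STUGE51 they stand below it without overlap.

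Genes around methionine and S-adenosylmethionine split between lower and higher calls. METK1 encodes S-adenosylmethionine synthetase, which joins methionine and ATP into the methyl donor of most plant methylations and the precursor of ethylene and polyamines. All 7 of its tested clones, of 9 on the array, were lower in both Nicotiana species. Their differences ran from -1.92 to -0.90 with a median of -1.38, and the adjusted p from 0.000208 to 0.00511; 6 of the 7 were called without tobacco replicate 1. In the clone with the largest difference, the ratio was -1.01 and -1.36 in tobacco, -1.67 and -2.06 in N. benthamiana and 0.41 and 0.38 in pepper. Nicotiana lay below potato here and pepper slightly above it, without overlap.

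ARD, the acireductone dioxygenase of the methionine salvage cycle, was higher in Nicotiana. It read 0.75 and 0.92 in tobacco, 0.21 and 0.27 in N. benthamiana and -1.60 and -0.89 in pepper. Every Nicotiana value lay above potato and both pepper values below it, and the difference was 1.78 ± 0.18 (adjusted p 0.000674). CBL, listed here as cystathionine beta-lyase of methionine synthesis, was lower at -1.01 ± 0.17 (adjusted p 0.0117); the symbol can also stand for a calcineurin B-like protein, which the annotation does not settle. Its call was lost without N. benthamiana replicate 1 (adjusted p 0.0557) and without pepper replicate 1 (adjusted p 0.124).

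The second CBL clone had a value on both pepper arrays, 0.97 and 1.04, and on none of the 4 Nicotiana arrays. Methionine synthase, MS, makes the methionine that METK1 uses. None of its 5 clones was called, with differences from -0.52 to 0.01. Over the list, 1 of 14 tested clones was higher, 8 were lower and 5 were not called. Among single-symbol clones 7.76% were higher and 17.4% lower. The list median was -0.96, beside 0.05 over all clones and -0.05 over single-symbol clones. METK1 alone supplied 7 of the 8 lower clones.

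In the list of redox and ascorbate recycling genes, the lower calls came from DHAR2 and DHAR. DHAR2 and DHAR are dehydroascorbate reductases, which return oxidized ascorbate to its reduced form with glutathione. DHAR2 read -0.76 and -0.81 in tobacco, -0.76 and -0.54 in N. benthamiana and 1.03 and 1.11 in pepper. The 4 Nicotiana arrays lay close together and far below the 2 pepper arrays, with a difference of -1.79 ± 0.16 (adjusted p 0.000146), and the second clone differed by -1.61 ± 0.16. DHAR differed by -0.88 ± 0.15 (adjusted p 0.00515), a call lost without tobacco replicate 1 (adjusted p 0.0623) or replicate 2 (adjusted p 0.0511).

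The quinone reductase NAD(P)H:QR was higher by 0.83 ± 0.21 (adjusted p 0.0317), but its arrays overlapped. It was not called with the replicate as a random term (adjusted p 0.0672), nor without tobacco replicate 1 (0.272), N. benthamiana replicate 2 (0.278) or pepper replicate 2 (0.104). CAT1, a catalase that breaks down hydrogen peroxide, had 2 tested clones that differed in pattern. The ratio of the first was -0.68 and -1.26 in tobacco, -2.18 and -3.00 in N. benthamiana and -0.24 and -0.89 in pepper. Tobacco overlapped pepper in this clone, and tobacco exceeded N. benthamiana by 1.62 ± 0.18 (adjusted p 0.00196). The second clone lay above potato in each species and differed from pepper by -0.11 ± 0.17, and neither clone was called in both species. GRX2, a glutaredoxin, differed by -0.38 and was not called, so that 1 of 7 redox clones was higher, 3 were lower and 3 were not called (median -0.88). These counts stand beside 7.76% higher and 17.4% lower among single-symbol clones.

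Most genes of central carbon metabolism were not called. Of 15 clones of glycolysis and fermentation genes, none was called in either direction by limma, and their median difference was -0.05. At an unadjusted p under 0.05 in both species, 3 of them were higher, all from GAPDH, and 0 were lower, beside 12.6% higher and 14.8% lower among all clones. GAPDH, glyceraldehyde-3-phosphate dehydrogenase, had differences from 0.17 to 0.61 in 5 clones. In the clone with the largest, the ratio was -0.10 and -0.11 in tobacco, -0.51 and -0.02 in N. benthamiana and -0.92 and -0.67 in pepper. The arrays did not overlap there, and the larger adjusted p was 0.0620; 2 of the 5 clones were called higher with all 10 arrays in the model, and likewise with scale or quantile normalization. Pyruvate kinase, PK, differed by 0.003 ± 0.15, alcohol dehydrogenase ADH1 by 0.12 and lactate dehydrogenase LDH-2 by -0.05.

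Leaf photosynthesis genes were few. PSBR differed by 0.46 ± 0.15 and 0.35 in its 2 tested clones, and TK by -0.24 ± 0.16 in the clone with the larger difference; neither gene was called. THF1, a chloroplast protein needed for thylakoid formation in Arabidopsis, was the exception. It read -0.67 and -1.03 in tobacco, -0.49 and -0.07 in N. benthamiana and 0.99 and 0.94 in pepper. All Nicotiana arrays lay below both pepper arrays, with a difference of -1.53 ± 0.19 (adjusted p 0.00210). The list held 5 tested clones, with 1 lower, 4 not called and a median of -0.04, where 17.4% of single-symbol clones were lower. SHMT had no clone with a value on all 6 arrays.

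Among 4 mitochondrial genes, TOM20, a receptor of the protein import complex, was lower at -0.92 ± 0.16 (adjusted p 0.0101). The median of the 4 was -0.19, and 17.4% of single-symbol clones were lower. The TOM20 call was lost without pepper replicate 2 (adjusted p 0.0612), tobacco replicate 1 (0.121) or tobacco replicate 2 (0.0568). AOX, the alternative oxidase that bypasses part of the respiratory chain, differed by 0.22 ± 0.18, the uncoupling protein UCP by -0.38 ± 0.16 and TYKY2, a complex I subunit, by -0.005 ± 0.15, with no call.

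Of 9 clones of transcription factor genes, none was higher, 2 were lower and 7 were not called, with a median of -0.50. Among single-symbol clones 7.76% were higher and 17.4% lower, so these counts set the list little apart. IAA3, of the Aux/IAA repressors of auxin response, read -1.01 and -1.27 in tobacco, -1.40 and -1.84 in N. benthamiana and 0.44 and -0.07 in pepper. It was lower without overlap, at -1.57 ± 0.16 (adjusted p 0.000684). IAA2, of the same family, differed by -0.50 ± 0.16 with no call (adjusted p 0.0956). STWRKY8, a WRKY factor, was called lower in 1 of 2 clones, by -1.05 ± 0.20 (adjusted p 0.0238), and its other clone differed by -0.83 with no call. That call was lost without pepper replicate 2 (adjusted p 0.114), tobacco replicate 1 (0.254) or tobacco replicate 2 (0.0521). CO, a CONSTANS-type factor of day-length response, differed by -0.74 ± 0.22 with no call, NAC2 by -0.09, MADS16 by 0.36, and BEL5 by 0.06 and 0.23 in its 2 clones.

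Defence genes gave 2 higher clones of 4 tested, with a median of 0.40, where 7.76% of single-symbol clones were higher. Both came from the polyphenol oxidase gene PPO, whose enzyme browns wounded tissue. PPO read 0.51 and 1.02 in tobacco, 0.44 and 0.83 in N. benthamiana and -0.21 and 0.06 in pepper. The Nicotiana arrays lay above potato and above both pepper arrays, by 0.78 ± 0.16 in this clone (adjusted p 0.0144) and by 0.73 ± 0.15 in the other (adjusted p 0.0192). Neither clone was called without pepper replicate 2, tobacco replicate 1 or tobacco replicate 2, where the first had adjusted p of 0.125, 0.0509 and 0.0832, and the other clone was not called without pepper replicate 1. PR1B, a pathogenesis-related protein that marks infected leaves, differed by 0.06 ± 0.16, and the lipoxygenase POTLX-3 by -0.41 ± 0.17, both with no call; HPL was not tested.

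BCAT1, a branched-chain aminotransferase, was the single tested gene of the amino acid and cell wall list. It read 0.18 and 0.46 in tobacco, 0.36 and 0.87 in N. benthamiana and -1.03 and -0.56 in pepper, higher by 1.26 ± 0.16 (adjusted p 0.00168). Potato lay between the groups. BCAT2, PME1 and XEGIP1 had no clone with a value on all 6 arrays.

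Signalling genes gave 2 lower clones of 6, with a median of 0.02, where 17.4% of single-symbol clones were lower. PKIN1, a protein kinase of the SNF1 type that senses low energy, differed by -0.97 ± 0.18 (adjusted p 0.0136), and IPMK, an inositol polyphosphate kinase, by -0.97 ± 0.16 (adjusted p 0.0107). Both calls were lost without pepper replicate 2 (adjusted p 0.127 and 0.0968), without tobacco replicate 1 (0.132 and 0.0614) and without tobacco replicate 2 (0.0756 and 0.115). The ethylene receptor ERS differed by 0.69 ± 0.16, the Ran regulator RANGAP1 by 0.21 ± 0.15 and the calcium-dependent kinase CDPK2 by -0.14, with no call, and CDPK1 was not tested.

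No clone was called by limma in 2 further lists, and at an unadjusted p under 0.05 in both species 1 of their 11 clones, of PHA2, was lower and 0 were higher, where 12.6% of all clones were higher and 14.8% lower. Shikimate and flavonoid synthesis had 4 tested clones with a median of 0.19, led by SHKA, the first enzyme of the shikimate pathway, at 0.68 ± 0.18 (adjusted p 0.134), and flavonol synthase FLS, at -0.46 to 0.23 in 3 clones; F3H was not tested. Proton pumps and potassium channels had 7 tested clones with a median of -0.17, in which the plasma membrane pump PHA2 ran from -0.70 to 0.43 over 4 clones and the guard cell channel KST1 differed by 0.06 ± 0.16. Over all 12 lists, 7 of 82 tested clones (8.54%) were higher and 19 (23.2%) were lower, and 7 of the 19 were clones of METK1. These shares stand beside 7.87% and 11.1% of all clones tested. Among single-symbol clones, from which the lists were drawn, they were 7.76% and 17.4%. Without the replicate number in the model, the calls of BCAT1 (adjusted p 0.0651), CBL (0.133), DHAR (0.153), IPMK (0.363), NAD(P)H:QR (0.370), PKIN1 (0.0952), PPO (0.168), STWRKY8 (0.239) and TOM20 (0.0816) were lost and METK1 was called in 3 of 7 clones, while GBSS, AMYA1, ARD, STUGE51, DHAR2, THF1 and IAA3 were still called.

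Of the 24 genes in no list, 3 had a clone that was higher and 5 a clone that was lower, beside 37 and 71 of all 376 genes. These 8 genes are named here because they passed the test. VPE2, a vacuolar processing enzyme, read -0.61 and -0.94 in tobacco, -0.58 and -1.18 in N. benthamiana and -2.51 and -2.22 in pepper. It was higher in this clone by 1.54 ± 0.20 (adjusted p 0.00114), while its other clone differed by -0.52 ± 0.19 with no call, so the clones of VPE2 disagreed in sign. EI2 was higher by 0.81 and PPS4 by 0.75. RGGA was lower in all 4 clones, at -1.26 to -0.74, and SRE1A in all 3, at -1.24 to -0.62. NDPK1, a nucleoside diphosphate kinase, was lower at -0.81, FIN1 at -0.68 and R1 in 1 of its 2 clones at -0.86. These smaller calls were less stable. EI2 was not called without tobacco replicate 1, R1 without that array, N. benthamiana replicate 2 or pepper replicate 2, FIN1 without any array but N. benthamiana replicate 1, and NDPK1 and PPS4 without any tobacco or pepper array. RGGA was called in 2 to 4 of 4 clones with single arrays left out and SRE1A in 1 to 3 of 3, and 2 of the 3 SRE1A clones were also lost under scale or quantile normalization, with a random replicate block, with all 10 arrays and with the other variance model. Without the replicate number in the model, VPE2 was still called in its first clone and RGGA in 1 clone, and the other 6 genes were not called.

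Among single-symbol joint calls, 1 clone per gene, locus-numbered genes supplied 19 of the 24 largest differences (79.2%), 12 in each direction, and they made up 79.8% of the genes tested. Clones without a single symbol reached higher values, up to 3.35. LOC102606132 had the largest higher value among the single-symbol clones. It read 2.35 and 2.22 in tobacco, 2.29 and 2.05 in N. benthamiana and -0.19 and -0.23 in pepper, with a difference of 2.44 ± 0.15 (adjusted p 4.39e-05). Both Nicotiana species lay at about the same level, far above potato, and pepper lay slightly below potato. Petunia shared the high level, at 2.23 and 2.06, and tomato read -0.63 and -0.71. LOC102580877 was higher by 2.02 ± 0.17, with pepper at -4.06 and -4.32. Such low values are coarse, because the ratios were kept to 2 decimals. This clone did not enter the alternatives limited to both spots or to ratios above 0.1. Of the 24 largest, 20 were tested above that ratio, and all 20 were called. LOC102577637 was higher in 2 of 3 clones, by 2.17 ± 0.17 and 1.23 ± 0.18, with the third at 0.24 ± 0.21 and not called. The leading clones of the other locus-numbered genes of the 12 were higher by 1.41 to 1.89. Not all of their clones were called: LOC102584296 was called in 2 of 3 clones, LOC102589596 in 1 of 3 and LOC102577643 in 1 of 2, whose other clone differed by 0.08 ± 0.20.

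On the lower side, LOC102577499 read -0.31 and 0.17 in tobacco, 0.77 and 0.63 in N. benthamiana and 3.08 and 3.02 in pepper. Pepper stood far above potato there and Nicotiana near it, with a difference of -2.74 ± 0.18 (adjusted p 6.79e-05), and tomato averaged 2.26. LOC102580417 showed the other arrangement, at -2.79 and -2.57 in tobacco, -3.40 and -3.16 in N. benthamiana and -0.75 and -0.46 in pepper, with a difference of -2.37 ± 0.15 (adjusted p 7.94e-05). Nicotiana stood far below potato and pepper near it, and all 6 clones of this gene were lower, at -2.37 to -1.56. Strongly negative values are coarse after the sign was turned, because the turned values of single spots equal log2 of ratios kept to 2 decimals. LOC102598951 (-2.12), LOC102596122 (-2.08), LOC102577657 (-2.07), LOC102590882 (-2.06), LOC102588383 (-1.88), LOC102593129 (-1.85), LOC102596978 (-1.82) and LOC102591352 (-1.80) completed the 12 lower genes with STUGE51 and METK1. LOC102596978 was not called without tobacco replicate 2 (adjusted p 0.142).

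Several clones of a gene gave like differences. Among the 153 genes with at least 2 tested clones, 61 had a called clone and 0 had clones called in both directions. In 25 of them every tested clone was called in the same direction, 5 higher and 20 lower. The SD of the difference between clones of the same gene was 0.33, against 0.76 over all single-symbol clones. Clones of a gene share sequence and arrays and are not independent. LOC102596607 was higher in 5 of 5 clones, by 1.33 to 1.89, and LOC102595372 in 3 of 3, by 1.08 to 1.14.

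**Figure D3:**
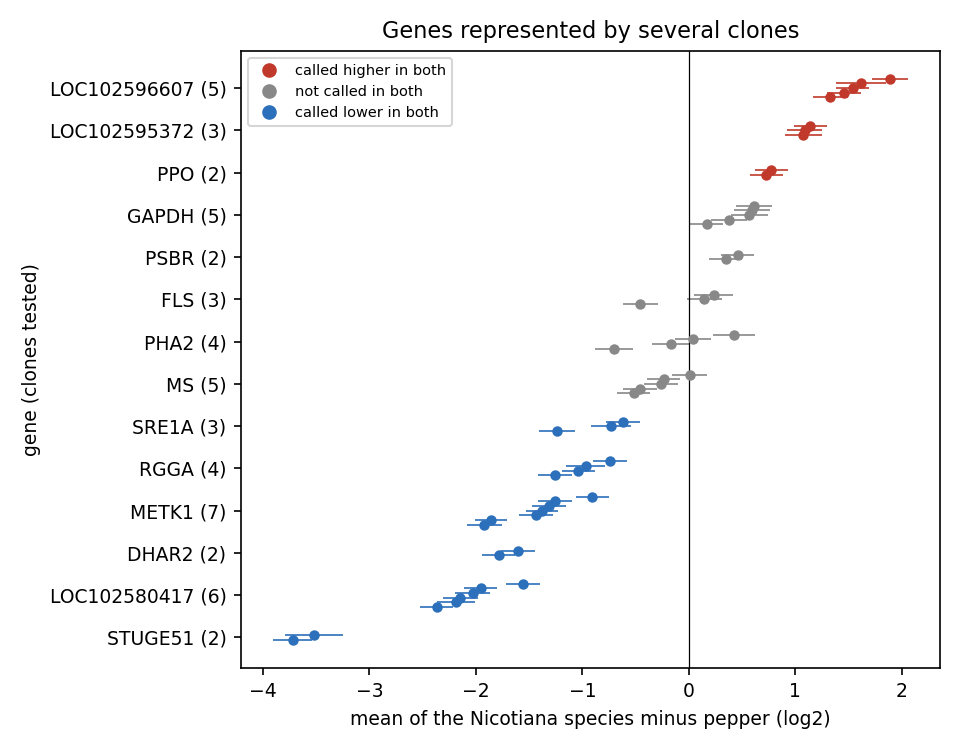
Mean of the Nicotiana species minus pepper (x axis, log2, bars are standard errors) for each tested clone of 14 genes with several clones (y axis, number of tested clones in parentheses); red clones were higher, blue clones lower and gray clones not called in both species. The 7 clones of METK1 all lie between -1.92 and -0.90, and the 5 clones of MS between -0.52 and 0.01.

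Potato, the other channel of every array, gives a common scale for the called clones, with the limit that the dye and the fit to the probe enter these values. Among the 646 higher clones, Nicotiana lay beyond 2-fold of potato and pepper within it in 170 (26.3%), pepper lay beyond and Nicotiana within in 134 (20.7%), and both lay within 2-fold in 286 (44.3%). For the 907 lower clones these numbers were 252 (27.8%), 211 (23.3%) and 316 (34.8%). Both groups stood beyond 2-fold of potato on opposite sides in 0 higher and 7 lower clones, STUGE51 among them. GBSS is an example of the first kind, LOC102577499 of the second and PPO of the third.

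Petunia and tomato were set beside the called clones as a description. The clones were selected by Nicotiana against pepper, so the place of these groups at opposite ends follows from the call. Over the higher clones the median log2 ratio was 0.53 for the Nicotiana mean, 0.26 for petunia, 0.08 for tomato and -0.45 for pepper. Over the lower clones it was -0.69 for Nicotiana, -0.52 for petunia, -0.26 for tomato and 0.43 for pepper. Petunia lay nearer Nicotiana than pepper in 434 of 619 higher clones (70.1%) and 656 of 891 lower clones (73.6%), beside 64.1% of all tested clones with petunia values. Tomato lay nearer Nicotiana in 51.9% of the higher and 54.8% of the lower clones, beside 47.6% of all. METK1 lay at -0.90 in petunia and -0.13 in tomato in its leading clone, and STUGE51 at -1.16 in petunia and -2.06 in tomato, so that for STUGE51 pepper alone among the 5 query species had a mean above potato.

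**Figure D4:**
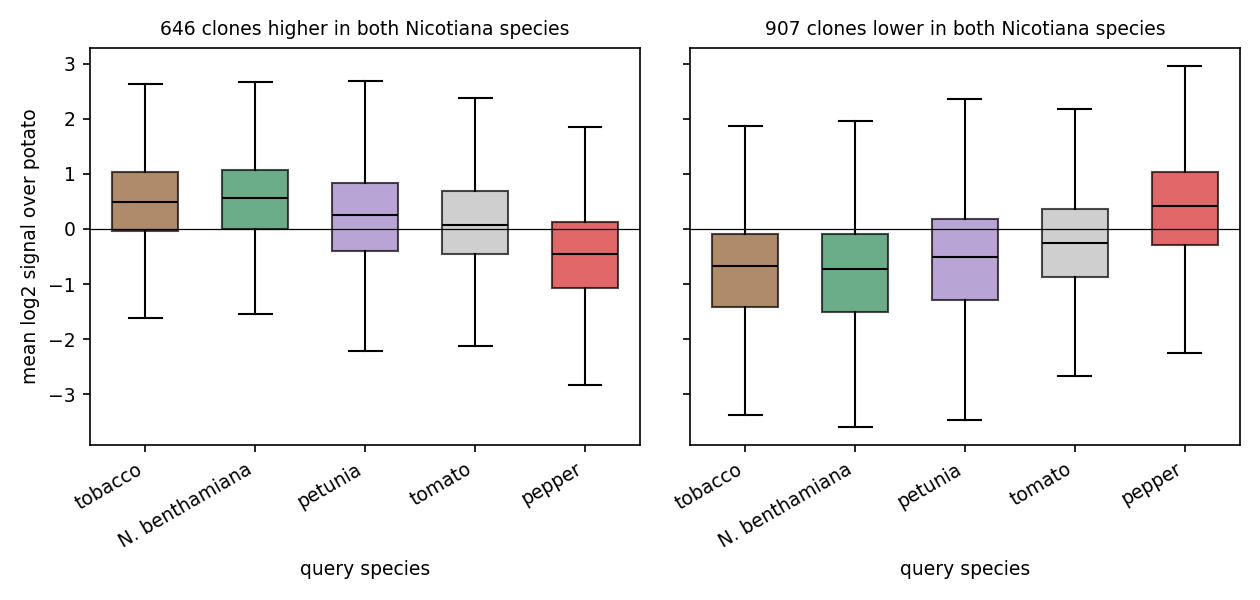
Mean log2 signal over potato (y axis) of the 646 clones higher (left panel) and the 907 clones lower (right panel) in both Nicotiana species, for the 5 query species; boxes span the quartiles, lines are medians, whiskers reach the farthest clone within 1.5 box heights and clones beyond are not drawn. The Nicotiana medians are highest on the left and lowest on the right, and pepper is at the other end in both panels. The call itself sets these ends, since the clones were selected by Nicotiana against pepper. Petunia and tomato, which the call did not use, lie between them.

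Tobacco and N. benthamiana differed from each other in fewer clones than either did from pepper. At the same threshold 536 clones (6.53%) were called, 262 of them higher in tobacco (3.19%), and 1951 had an unadjusted p under 0.05. Of the 1553 joint calls, 92 also differed between tobacco and N. benthamiana. This count moved more than any other with single arrays: with tobacco replicate 2 left out it was 31, with tobacco replicate 1 left out 39, with either pepper array left out 814 and with N. benthamiana replicate 1 left out 1147. Dropping the replicate number from the model left 4 calls. GBSS was among those that differed, higher in tobacco by 1.56 ± 0.21 (adjusted p 0.00360).

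LOC102592687 differed most among the named clones of this contrast. It read -3.06 and -2.57 in tobacco, against -0.94 and -0.59 in N. benthamiana, a difference of -2.05 ± 0.18 (adjusted p 0.000374), while pepper read -1.07 and -0.67. N. benthamiana overlapped pepper there and tobacco did not. LOC102606273 was higher in tobacco by 1.93 ± 0.21, at 0.47 and 0.45 in tobacco against -1.45 and -1.49 in N. benthamiana. LOC102585502 was higher in tobacco by 1.42 ± 0.24 in its second clone, and LOC102584296, 1 of the 12 largest higher genes against pepper, was lower in tobacco at -1.21 ± 0.18 (adjusted p 0.00577).

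Clones outside the 8208 were missing on at least 1 of the 6 arrays. A value was found on some of the arrays for 2549 clones and on none for 4603. A missing value can come from either channel, so presence is given without a test. On all 4 Nicotiana arrays and neither pepper array 37 clones had a value, of which 25 also had values on all 4 tomato and petunia arrays. LOC102583085 was the only single-symbol clone among them, at -0.45 and 0.56 in tobacco and -0.06 and 0.89 in N. benthamiana. The reverse pattern held for 14 clones, with the second CBL clone the only single-symbol one and 1 clone seen on all tomato and petunia arrays. At the threshold, LOC102587142 was just inside (adjusted p 0.0454, difference -0.56) and 1 clone of R1 just outside (adjusted p 0.0517, difference -0.74).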

How the data were processed

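The authors labeled query leaf RNA with Cy3 and potato leaf RNA with Cy5, scanned the slides and extracted signals with GenePix. Spots found in only 1 channel, spots smaller than 70 µm and spots with over 30% of pixels saturated were excluded. Mean signals less the local background were then quantile normalized in limma. The submitters' processing notes name limma too, with no version given in the sources used here. Deposited values, at most 1 for each of 32448 spots, were read as log2 ratios because each one equals minus log2 of a ratio kept to 2 decimals (within 0.0025). Single-channel intensities were not used. Precision is limited by having 2 arrays per species.

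From the deposited log2 values, the sign was turned to query over potato and duplicate spots were averaged, or the single remaining one was used; 11.7% of the values used rest on 1 spot. Gene symbols came from the platform annotation. limma 3.58.1 in R 4.3.3 fitted lmFit and eBayes to the 6 arrays and 8208 clones with a coefficient per species and the replicate number as a fixed block, leaving 2 residual degrees of freedom and 7.94 prior ones. Benjamini-Hochberg adjustment was over all 8208 clones within each contrast, and a clone was called where both adjusted p were under 0.05 with the same sign. The adjusted p printed for a gene is the larger of the 2 species', and for tobacco against N. benthamiana that of this contrast. Differences are the mean of both Nicotiana species minus pepper with their standard error.

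Same-numbered arrays share a potato extract per the labels, and their deviations from the species means correlated at 0.61 to 0.63 over 8208 clones in each pair of species, so the numbers pair the arrays. The members, the gene lists and the tests were chosen with earlier results of these data known, and the lists were then written from the gene symbols. Genes named by rule were the 12 largest joint calls in each direction with 1 symbol, up to 4 members of each list and the 5 largest calls between tobacco and N. benthamiana. Fits were also run on data simulated under the same model, which cannot tell whether that model suits these arrays. Alternatives covered centring, scaling, the block, the arrays and clones used, the variance model, the threshold and leaving out each array. Counting and plotting used Python 3.11.15, pandas 2.3.3 and matplotlib 3.10.9. Sequences and genome positions of the clones were not used here.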

Additional observations from a re-analysis of the deposited data

Results flagged for a closer look

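Tobacco and N. benthamiana differed from each other by limma in 11 of the 64 clones chosen by the naming rule, beside 6.53% of all clones tested. The rule picked 5 of the 11 for their calls in this same contrast: GBSS, CAT1, LOC102592687, LOC102606273 and LOC102585502. The count of 11 is thus partly fixed by that choice. Tobacco was higher than N. benthamiana in GBSS by 1.56, in LOC102580877 by 0.88, in the catalase CAT1 by 1.62, in the potassium channel SKT3 by 0.97, in LOC102606273 by 1.93 and in the second clone of LOC102585502 by 1.42 on the log2 scale. The tobacco minus N. benthamiana difference was negative in LOC102584296 at -1.21, in lipoamide dehydrogenase LPD2 at -0.78, in glucose phosphate isomerase GPI at -0.95, in flavonol synthase FLS at -0.89 and in LOC102592687 at -2.05. GBSS, LOC102580877 and LOC102584296 were still called higher than pepper in both species, and the other 8 were not called in both.

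For PKIN1 the 4 Nicotiana arrays read -0.80 and -0.81 in tobacco and -0.85 and -1.33 in N. benthamiana, and the gap below the other 3 took 0.898 of their range, above Dixon's critical value for 4 samples. It was the only one of 64 clones checked to do so, while chance gives about 1 in 20 such groups.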

How the results depend on the processing

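Leaving the replicate number out of the model lowered the joint calls to 117 higher and 220 lower, the calls of tobacco against pepper to 525, of N. benthamiana against pepper to 694 and of tobacco against N. benthamiana to 4; with the replicate block the counts were 646, 907, 2597, 2501 and 536. Calls at an adjusted p under 0.01 numbered 282, 493, 1273, 1299 and 110 in the same order, and calls that also reached 2-fold 185, 352, 862, 966 and 225. With each array left out in turn, the counts ran from 251 to 780, from 432 to 967, from 924 to 3547, from 1662 to 2574 and from 31 to 1147; the lone array of a species was then assumed to vary like the others. The cause of these changes was not tested. The other alternatives were centring, scale and quantile normalization, a random block, all 10 arrays and another variance model. They also included clones with both spots (5113 tested) and clones above a ratio of 0.1 (8001 tested). Each count stayed within 1.5 times, though these filters tested fewer than 8208 clones. With both spots, tobacco against N. benthamiana gave 506 calls of 5113 clones, beside 536 of 8208. No clone called in both fits changed direction in any of the 17 alternatives. Only centring, the normalizations and leaving out an array could change it, since the difference itself stayed the same in the rest. Of the 64 named clones, 41 kept their call status in every alternative that tested them and 48 in every alternative but the one without the block. Without the block 18 of the 24 largest calls were kept.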
